A study of Homo sapiens with 4 samples.

Results

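The genes examined were the endoplasmic reticulum stress chaperones HSPA5, HSP90B1, DNAJB9, DNAJB11, DNAJC3, HERPUD1, SYVN1, CRELD2, MANF and SDF2L1, 10 genes chosen by symbol. Of these, 9 had a probe set that carried the symbol in the platform annotation, out of 17687 named genes, and HSP90B1 was not analysed here. Each of the 9 had 1 probe set. They were measured in DU145, an established line of human prostate cancer cells used as a model of castration-resistant disease. There were 4 arrays, 1 for each condition, of cells kept for 48 h with No.10-3 at 5 µM, 0.5 µM C-30, 2 µM C-30 or vehicle alone. Both compounds are described as inhibitors of PSF, the RNA-binding protein encoded by SFPQ. The cells grew in RPMI 1640 with 10% FBS, and the labels name no difference between conditions other than the compound and its dose. The compounds were given at different doses, so they are set side by side and no log2 difference between them was taken. Where the 4 arrays are ranked, the order mixes compound with dose. A single array per condition gives no replicate spread, so no error and no p-value stands beside any difference below.

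The endoplasmic reticulum is where secreted and membrane proteins fold, and chaperones there hold unfolded chains and help them to their final shape. When unfolded proteins build up, the membrane sensors IRE1, PERK and ATF6 start the unfolded protein response. ATF6 and XBP1, the factor activated by IRE1, then raise transcription of chaperone and degradation genes through short promoter elements. PERK slows translation and favours ATF4, whose targets include DDIT3 and other stress genes.

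The promoter elements are shown first because the response is known to act through them. The endoplasmic reticulum stress element ERSE is CCAAT and CCACG with 9 free bases between them, and its shorter form ERSE-II is ATTGG and CCACG with 1 free base between them. Both were searched as exact letters on both strands in the 250 bases upstream of the annotated start, taken from RefSeq on GRCh38.p14, which held all 10 genes. HSPA5, HSP90B1 and CRELD2 held ERSE, 3 of 10 genes, against 0.0806% of 27305 promoters of the same length. HERPUD1 and SDF2L1 held ERSE-II, 2 of 10 genes, against 0.0513% of all promoters. Among the 14250 promoters of genes on the array the shares were 0.126% for ERSE and 0.0772% for ERSE-II. The 10 genes belong to the response known to act through these elements, so the shares only describe the sequences. The elements of the 4 measured genes are given below on the strand that reads as the consensus, with the fixed letters in capitals.
HSPA5: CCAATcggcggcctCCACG
CRELD2: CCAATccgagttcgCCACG
HERPUD1: ATTGGgCCACG
SDF2L1: ATTGGtCCACG

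The surrounding 250 bases of the same 4 genes, which end 1 base before the annotated start, are printed on the strand of each gene with the fixed letters of the element in capitals. The windows are chr9:125241344-125241593, minus strand, for HSPA5, chr22:49918384-49918633, plus strand, for CRELD2, chr16:56931892-56932141, plus strand, for HERPUD1, and chr22:21642052-21642301, plus strand, for SDF2L1. In CRELD2 and SDF2L1 the element lies on the opposite strand, so the capitals read as its reverse complement.
HSPA5: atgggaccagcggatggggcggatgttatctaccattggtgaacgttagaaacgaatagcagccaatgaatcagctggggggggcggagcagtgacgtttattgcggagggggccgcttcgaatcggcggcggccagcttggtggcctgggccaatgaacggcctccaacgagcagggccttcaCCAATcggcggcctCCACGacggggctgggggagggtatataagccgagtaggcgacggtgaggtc
CRELD2: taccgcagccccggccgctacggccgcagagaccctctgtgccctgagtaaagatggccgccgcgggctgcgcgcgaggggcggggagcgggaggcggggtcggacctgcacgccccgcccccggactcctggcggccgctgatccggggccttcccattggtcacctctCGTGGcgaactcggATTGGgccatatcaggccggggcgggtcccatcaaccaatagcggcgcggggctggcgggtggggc
HERPUD1: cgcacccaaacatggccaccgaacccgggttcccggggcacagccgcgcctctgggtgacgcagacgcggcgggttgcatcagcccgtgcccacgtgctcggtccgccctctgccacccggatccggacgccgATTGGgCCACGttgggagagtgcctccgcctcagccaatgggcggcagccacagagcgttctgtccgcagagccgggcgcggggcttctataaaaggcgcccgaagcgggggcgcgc
SDF2L1: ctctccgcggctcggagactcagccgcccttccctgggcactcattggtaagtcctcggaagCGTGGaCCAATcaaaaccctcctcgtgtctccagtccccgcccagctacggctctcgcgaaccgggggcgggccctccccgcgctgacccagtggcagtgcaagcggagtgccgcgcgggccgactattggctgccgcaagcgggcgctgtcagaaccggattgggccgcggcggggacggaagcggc

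The element began 66 bases before the start of HSPA5, 117 before HERPUD1, 80 before CRELD2 and 188 before SDF2L1. Exact matches to either element were not present in the windows of DNAJB9, DNAJB11, DNAJC3, SYVN1 and MANF. The core letters CCACG, which also end each of the elements above, occurred in 9 of 10 windows and in 33.3% of all promoters. The windows of DNAJB9 (chr7:108569624-108569873, plus strand) and SYVN1 (chr11:65134520-65134769, minus strand) are shown with these core letters in capitals on either strand, because these 2 genes stood furthest apart on the C-30 arrays among members above background on at least 1 array.
DNAJB9: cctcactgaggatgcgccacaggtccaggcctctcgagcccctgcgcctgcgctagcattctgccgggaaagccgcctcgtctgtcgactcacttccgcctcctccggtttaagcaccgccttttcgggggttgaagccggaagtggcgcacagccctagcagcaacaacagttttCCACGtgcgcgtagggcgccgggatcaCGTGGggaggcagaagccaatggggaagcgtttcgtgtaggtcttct
SYVN1: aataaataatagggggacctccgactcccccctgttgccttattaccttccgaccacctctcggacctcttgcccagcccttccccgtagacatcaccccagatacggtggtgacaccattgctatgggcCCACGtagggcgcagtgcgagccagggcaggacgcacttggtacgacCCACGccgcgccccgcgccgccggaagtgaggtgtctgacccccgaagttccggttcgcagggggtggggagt
The letters TGACGTGG, part of a binding site of XBP1 and ATF6, occurred in 0 of 10 windows and in 0.667% of all promoters. A match to letters describes the sequence and does not show that a factor was bound there.

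**Figure D1:**
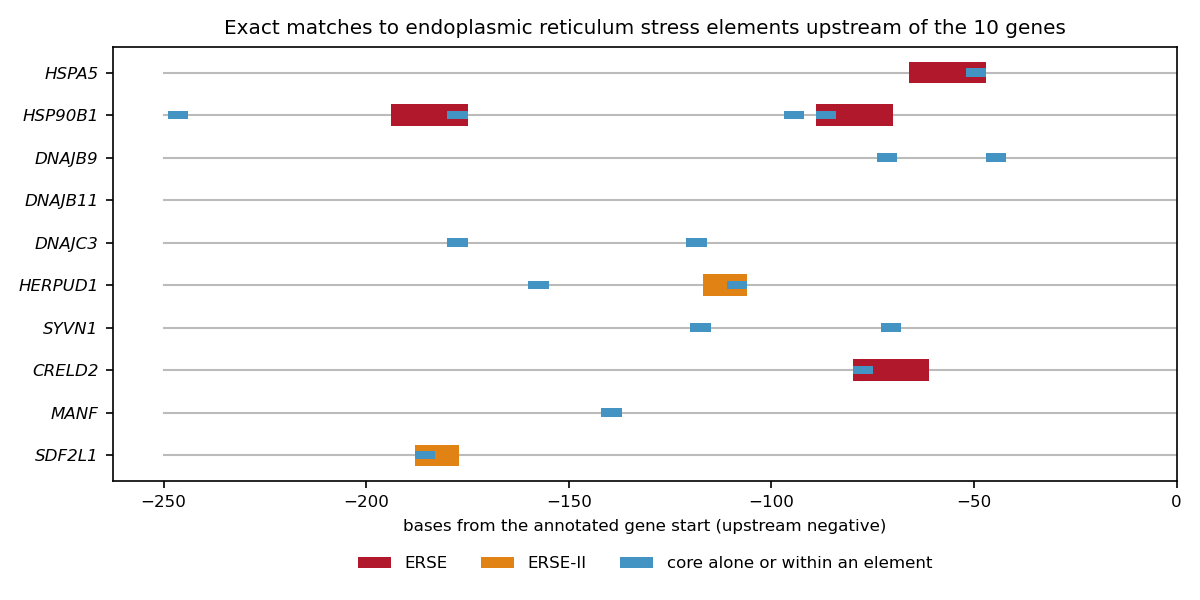
Positions of exact matches to ERSE, ERSE-II and their shared core upstream of the 10 genes, on an axis of bases from the annotated start. Wide bars are elements and narrow bars are the core. ERSE is seen in HSPA5, HSP90B1 and CRELD2, ERSE-II in HERPUD1 and SDF2L1, and DNAJB11 has no core letters in the window.

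Signals are the authors' log2 RMA values, where a difference of 1 is called 2-fold. Median signals over named genes were alike on all arrays (5.55 to 5.57), as were the Pearson correlations of each array with the others (0.979 to 0.987, across genes). The 95th percentile of 612 negative control probe sets was 7.06 with No.10-3, 7.11 and 7.15 with C-30 at 0.5 and 2 µM, and 7.32 with vehicle, and a signal at or under it is called within background. A gene entered a comparison when the higher of its 2 signals reached a floor of 5.56, the median of the named probe sets, and all 9 members did so in every comparison. Of 7 epithelial markers 5 were above it on all arrays, among them KRT8 and KRT18, while CDH1 and KRT5 were within background on all of them. The luminal secretory markers KLK3, KLK2 and TMPRSS2 were also within background on all arrays. Of the markers of leukocytes, endothelium and fibroblasts, 1 of 11 measured was above background on all arrays. That gene was CD68, which many cell types express in lysosomes. The spread of the 63 ERCC spike probe sets was used as a rough guide to array noise, in place of replicates. The robust SDs of their log2 difference from vehicle were 0.13 with No.10-3, 0.17 with 0.5 µM C-30 and 0.27 with 2 µM C-30. Each SD is taken around the median spike difference, so a shift shared by all ERCC spikes is left out of it. These SDs may not equal the noise of expressed genes.

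HSPA5 encodes BiP, the Hsp70 chaperone of the endoplasmic reticulum and the usual marker of the unfolded protein response. Its log2 signal was 15.26 with No.10-3, 15.27 with 0.5 µM C-30, 15.71 with 2 µM C-30 and 15.47 with vehicle. No.10-3 and the lower dose of C-30 were thus almost level and under vehicle, and the higher dose was above it. The log2 difference from vehicle was -0.20 with No.10-3, -0.20 with 0.5 µM C-30 and 0.25 with 2 µM C-30. In the first of these 66.5% of all genes matched or passed it in size, in the second 69.9% and in the third 68.6%. Between the doses of C-30 the log2 difference was 0.44, with 29.8% of genes as far apart, or 0.64 after quantile normalization. That normalization also gave 0.49 for 2 µM C-30 against vehicle. HSPA5 lies on chromosome 9, 125234853 to 125241343 in GRCh38.p14.

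The J-domain proteins bring clients to BiP and start its ATPase cycle, and their signals followed different patterns. DNAJB9, which encodes ERdj4, had signals of 6.76 with No.10-3, 7.39 with 0.5 µM C-30, 7.85 with 2 µM C-30 and 6.78 with vehicle. Both C-30 arrays were above background and above the other arrays, in the order of dose, whereas the No.10-3 and vehicle signals lay within background. The log2 difference from vehicle was 1.06 at 2 µM and 0.60 at 0.5 µM, folds that are inexact because the vehicle signal is not above background. DNAJC3, which encodes p58IPK, a luminal co-chaperone also known to restrain PERK, had signals of 7.01 with No.10-3, 7.42 and 7.50 with C-30 at 0.5 and 2 µM, and 7.02 with vehicle. It had the same split between arrays as DNAJB9 with smaller log2 differences, 0.40 and 0.49 on the C-30 arrays.

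DNAJB11 (chromosome 3, 186570720 to 186585793), which encodes ERdj3, a soluble partner of BiP, showed another pattern. Its signal was 8.59 with No.10-3, 9.65 with 0.5 µM C-30, 9.43 with 2 µM C-30 and 9.45 with vehicle. The No.10-3 array alone was low, and the other arrays lay within 0.22 of each other. The log2 difference from vehicle was -0.85 with No.10-3, rank 236 from the lowest of 9219 genes, against 0.21 with 0.5 µM C-30 and -0.01 with 2 µM C-30. The last value turned positive under quantile normalization, centring and a lowess correction.

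HERPUD1 and SYVN1 serve the degradation of misfolded proteins. SYVN1 encodes HRD1, the ubiquitin ligase at the core of that machinery, and HERPUD1 a membrane protein that binds it. HERPUD1 had signals of 10.17 with No.10-3, 11.30 with 0.5 µM C-30, 11.15 with 2 µM C-30 and 10.83 with vehicle. As for DNAJB11, No.10-3 was the lowest array, but here both C-30 arrays were above vehicle, by 0.46 at 0.5 µM and 0.32 at 2 µM on the log2 scale, the second 0.50 after quantile normalization, and No.10-3 differed from vehicle by -0.67. SYVN1 had signals of 10.33 with No.10-3, 10.67 and 10.65 with C-30 at 0.5 and 2 µM, and 11.17 with vehicle. Vehicle was its highest array, and the log2 differences from it were -0.84 with No.10-3 and -0.50 and -0.52 with C-30. On the C-30 arrays these partners lay on opposite sides of vehicle, and with No.10-3 both were low.

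CRELD2, MANF and SDF2L1 encode small luminal proteins, and their signals lay within background on all 4 arrays, so that their differences are inexact. CRELD2, a protein with disulfide isomerase activity, had signals of 5.47 with No.10-3, 6.15 with 0.5 µM C-30, 5.51 with 2 µM C-30 and 6.65 with vehicle. All treated arrays were lower than vehicle, with log2 differences of -1.17 with No.10-3, -0.50 with 0.5 µM C-30 and -1.13 with 2 µM C-30. MANF, which steadies BiP bound to its clients and is also secreted, varied least among the members. Its signal was 6.80 with No.10-3, 6.76 and 6.81 with C-30 at 0.5 and 2 µM, and 7.11 with vehicle. SDF2L1, a partner of ERdj3, had signals of 6.36 with No.10-3, 6.61 and 6.21 with C-30, and 6.54 with vehicle. Its values kept no order of dose, and the difference between the C-30 arrays was -0.40.

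**Figure D2:**
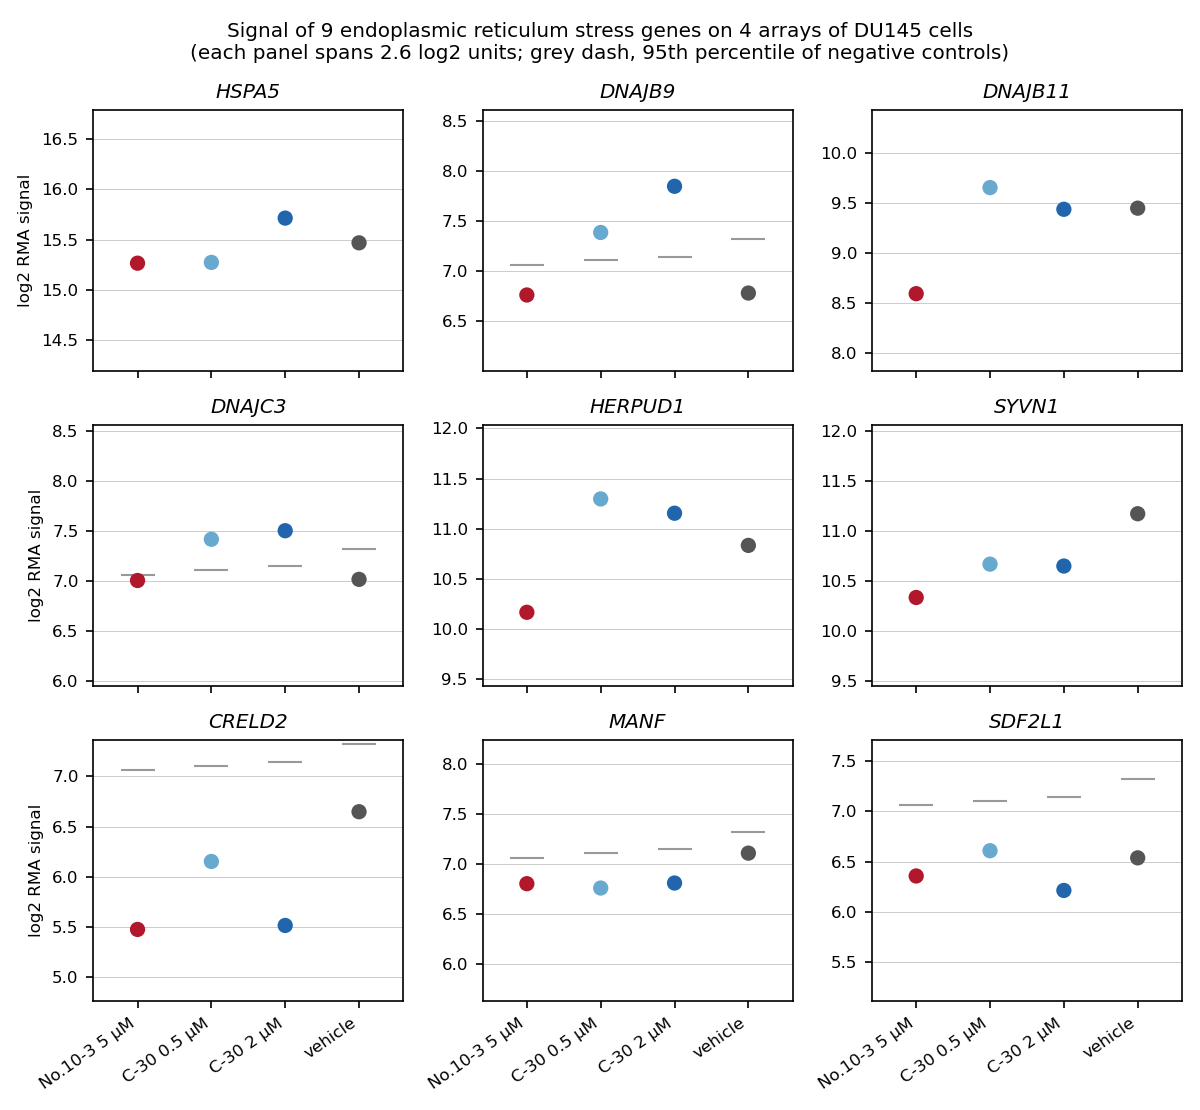
Log2 RMA signal of each of the 9 measured genes (vertical axis) on the arrays of No.10-3, both doses of C-30 and vehicle (horizontal axis), with 1 point per array and the 95th percentile of negative controls as a grey dash where it falls in the panel. DNAJB9 and DNAJC3 are above that dash on both C-30 arrays only, DNAJB11 and HERPUD1 are lowest with No.10-3, and CRELD2, MANF and SDF2L1 lie under it throughout.

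The 3 comparisons with vehicle share the single vehicle array, and any deviation of that array enters all of them. With No.10-3 at 5 µM the chaperones were lower than or level with vehicle. The median log2 difference of the 9 members was -0.30, from -1.17 for CRELD2 to -0.01 for DNAJC3, beside a median of 0.05 over 9219 genes past the floor. All 9 members were on the lower side, as were 45.9% of those genes, but DNAJB9 and DNAJC3 by no more than 0.02. Of the 9, 5 lay within background on both arrays, namely DNAJB9, DNAJC3, CRELD2, MANF and SDF2L1, so their direction is inexact. The background percentile was itself lower with No.10-3, at 7.06 against 7.32 with vehicle. CRELD2 alone passed 2-fold, 1 of 9, where 1.32% of all genes did so on the lower side, and it lay within background. On the higher side no member passed it, where 4.36% of all genes did. At 1.5-fold 4 of 9 were lower, namely CRELD2, DNAJB11, SYVN1 and HERPUD1, against 8.34% of all genes, and 0 of 9 were higher, against 14.8%. HSPA5, DNAJB11, HERPUD1 and SYVN1, the 4 members above background on all arrays, had a median of -0.75. No.10-3 was the lowest of the 4 arrays for 7 of 9 members, and for 19.1% of 9630 genes past the floor on any array. For some of these members another array was nearly level. HSPA5 was at 15.26 against 15.27 with 0.5 µM C-30, and CRELD2 at 5.47 against 5.51 with 2 µM C-30. DNAJB9 was at 6.76 against 6.78 with vehicle, and DNAJC3 at 7.01 against 7.02. In bulk RNA, fewer cells that make a transcript and less transcript per cell cannot be told apart. The hybridization spikes bioB, bioC, bioD and cre were also lower on the No.10-3 array, with log2 differences from -0.41 to -0.32. On the C-30 arrays they were at -0.01 to 0.15, and their part in the result was not tested.

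With 0.5 µM C-30 no member reached 2-fold in either direction, where 3.4% of 9267 genes did on the higher side and 2.77% on the lower side. The members had a median log2 difference of 0.07, with 5 of 9 higher and 4 lower, beside a median of -0.04 over all genes. DNAJB9 was the 1 member past 1.5-fold, on the higher side with 12.2% of all genes, and 13.4% of genes passed it on the lower side. The 4 members above background on all arrays had a median of 0.0049, from -0.50 for SYVN1 to 0.46 for HERPUD1. DNAJB9 and DNAJC3 were above background on the C-30 array and within it on the vehicle array, at inexact differences of 0.60 and 0.40.

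With 2 µM C-30 the members lay on both sides of vehicle. DNAJB9 passed 2-fold on the higher side, 1 of 9, where 4.67% of 9319 genes did so, and CRELD2, within background, on the lower side, 1 of 9, against 6.15% of all genes. The median log2 difference was -0.01 beside -0.06 over all genes, with 4 members higher and 5 lower. The 4 members above background on all arrays had a median of 0.12, from -0.52 for SYVN1 to 0.32 for HERPUD1. At 1.5-fold the same single members were counted, where 15.1% of genes passed on the higher side and 18.5% on the lower. The sign of the median is not settled, since 5 of 8 alternatives put it above 0. Over the same 4 members the highest and lowest were 0.84 apart on the log2 scale, beside 0.65 with No.10-3 and 0.97 with 0.5 µM C-30. The poly-A spikes dap, lys, phe and thr, which are labelled along with the sample, were lower than with vehicle, with log2 differences of -0.54 to -0.28 with No.10-3, -0.80 to -0.01 with 0.5 µM C-30 and -0.89 to -0.37 at 2 µM, and their part in these differences was not tested.

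**Figure D3:**
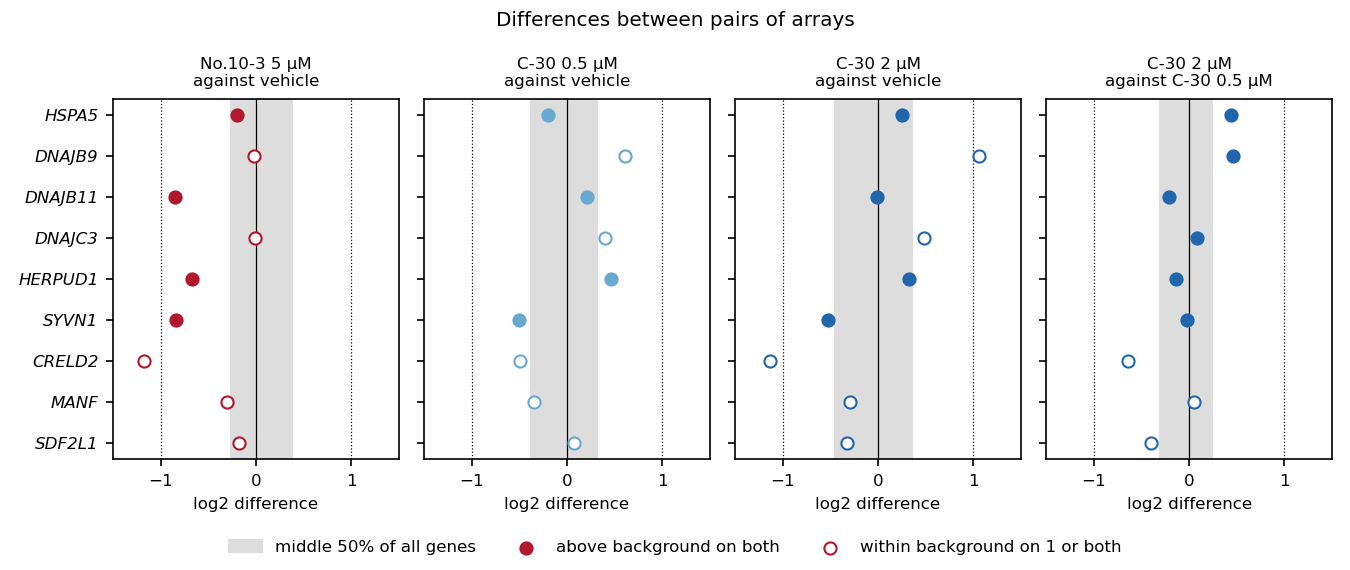
Log2 difference of each member (horizontal axis) in the 3 comparisons with vehicle and between the doses of C-30. Filled points are above background on both arrays, open points within it on 1 or both, the grey band is the middle 50% of all genes past the floor, and dotted lines mark 2-fold. CRELD2 passes the line with No.10-3 and with 2 µM C-30, and DNAJB9 passes it on the other side with 2 µM C-30.

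The doses of C-30 were compared directly, which leaves out the vehicle array, and the members had a median log2 difference of -0.02 that was above 0 under 4 of 8 alternatives. No member differed by 2-fold between 2 µM and 0.5 µM, where 1.39% of 9282 genes passed on the higher side and 2.18% on the lower. DNAJB9 at 0.46 and HSPA5 at 0.44 were the highest members and CRELD2 at -0.64 the lowest, the 1 member past 1.5-fold lower, with 9.92% of all genes, and none passed 1.5-fold higher, as 7.89% of genes did. Signals were ordered upward from vehicle through 0.5 µM to 2 µM for DNAJB9 and DNAJC3, and downward for SYVN1 and CRELD2. The step of SYVN1 between the doses was -0.019 and turned positive under quantile normalization, centring and a lowess correction, and CRELD2 lay within background on all arrays. That is 2 of 9 members each way, beside 19.6% and 25.8% of 9506 genes, so that ordering by dose was about as common among the members as among all genes.

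The members were set beside each other by the root mean square difference of their signals over the 4 arrays, after each gene was centred on its own mean. DNAJB11 and HERPUD1 were the closest pair, at 0.12 on the log2 scale, and both were above background on all arrays. DNAJB9 and CRELD2 were the farthest, at 0.78, with CRELD2 within background throughout. HSPA5 and CRELD2, which both hold ERSE, were 0.54 apart, and HERPUD1 and SDF2L1, which both hold ERSE-II, were 0.43 apart. CRELD2 and SDF2L1 lay within background on all arrays, so nothing can be read from these last distances about the elements. The genes outside the list with the profile closest to HSPA5 were NRF1, RPRD1B, LIN37, KCTD7 and USP6, at 0.01 to 0.03. With 4 arrays and 189 genes within 0.1, this likeness only describes the arrays.

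Genes around the chaperones in the same response were examined next, in lists chosen with earlier results of these data known. Of the sensors and transcription factors, 8 of 9 were measured, and their median log2 differences from vehicle were 0.00 with No.10-3, -0.17 with 0.5 µM C-30 and -0.31 at 2 µM. The second was 0.02 with a floor at the 75th percentile. XBP1 had signals of 8.45 with No.10-3, 9.06 and 8.86 with C-30, and 8.78 with vehicle, a log2 difference of -0.33 with No.10-3. These signals give transcript level only, and activation of the sensors and factors was not measured. ATF6B, a relative of ATF6, was at -0.74 with 0.5 µM C-30 and MBTPS1, the protease that cuts ATF6, at -0.58 with 2 µM C-30. CREB3 differed by -0.27 with No.10-3, -0.50 with 0.5 µM C-30 and -0.52 with 2 µM C-30. CREB3L2, a membrane-bound factor related to ATF6, was the 1 gene of this list past 2-fold against vehicle, at -1.21 with 2 µM C-30. That is 1 of 8 on the lower side, where 6.15% of all genes were. Its signal was 6.20 there, within background, against 7.41 with vehicle.

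Of the 8 genes listed as outputs of the PERK branch, all were on the higher side of vehicle with 2 µM C-30, as were 46.4% of all genes. The median log2 difference of the 8 was 0.71. PERK activity was not measured, and whether these values came through PERK was not tested. ATF3 and DDIT3 passed 2-fold, 2 of 8, where 4.67% of all genes did so, and 4 of 8 passed 1.5-fold, where 15.1% did. ATF4 at 0.11 and TRIB3 at 0.16 lay under the ERCC robust SD of 0.27 in that comparison. ATF3 had signals of 6.13 with No.10-3, 7.41 and 9.40 with C-30, and 7.24 with vehicle, and was highest at the higher dose of C-30. DDIT3, the gene of the stress factor CHOP, had signals of 6.03 with No.10-3, 6.51 and 7.76 with C-30, and 6.36 with vehicle. Both were above background with 2 µM C-30 and within it with vehicle, at log2 differences of 2.16 for ATF3 and 1.40 for DDIT3. With No.10-3, 7 of 8 were lower, as were 45.9% of all genes, with a median of -0.42, and 3 of the 8 lay within background on both arrays. ATF3 was at -1.11 there and PPP1R15A, the gene of a phosphatase subunit that restores translation, at -0.60, both within background. The exception was ASNS, the asparagine synthetase gene, above background on all arrays, at 0.51 with No.10-3 and 0.95 with 2 µM C-30. With 0.5 µM C-30 the median was 0.08, and ASNS stood at 0.43 and PPP1R15A, within background, at -0.46.

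Folding enzymes and lectin chaperones lay on both sides of vehicle on each array. Of 23 genes 21 passed the floor, and their medians were 0.04 with No.10-3, -0.28 with 0.5 µM C-30 and -0.20 at 2 µM. None of the 21 passed 2-fold on any array, where 1.32% to 6.15% of all genes did on either side, so 0 of 21 is not far from that share. The first turned negative under 5 of 8 alternatives. After quantile normalization the second was -0.11 and the last 0.08, and after a lowess correction they were -0.15 and -0.07. DNAJC10, a J-domain protein that reduces disulfides, was higher by 0.87 with No.10-3 and 0.94 with 0.5 µM C-30. SEC63, the J-domain protein of the translocation channel, was higher by 0.74 with No.10-3 and 0.82 with 2 µM C-30, and FKBP14, a prolyl isomerase, by 0.82 at 2 µM. TXNDC11, a thioredoxin-domain protein, was at -0.84 with 0.5 µM C-30.

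Other genes of degradation from the endoplasmic reticulum, 15 of 17 past the floor, had medians of -0.04 with No.10-3, -0.08 with 0.5 µM C-30, or 0.03 after a lowess correction, and 0.15 at 2 µM. EDEM3, a mannosidase that marks misfolded glycoproteins, had signals of 8.70 with No.10-3, 7.98 and 8.09 with C-30, and 7.25 with vehicle. It was the 1 gene of 15 past 2-fold higher with No.10-3, where 4.36% of all genes were. Its vehicle signal lay within background, so the log2 differences of 1.45 with No.10-3, 0.73 with 0.5 µM C-30 and 0.84 with 2 µM C-30 are inexact. DERL2, a gene of the derlin family of the same complex as SYVN1, lay within background on all arrays, at log2 differences of -0.60 with No.10-3, -0.77 with 0.5 µM C-30 and -1.20 with 2 µM C-30. OS9, a lectin that delivers clients to that complex, was at -0.83 with 0.5 µM C-30, -0.71 with 2 µM C-30 and -0.19 with No.10-3.

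**Figure D4:**
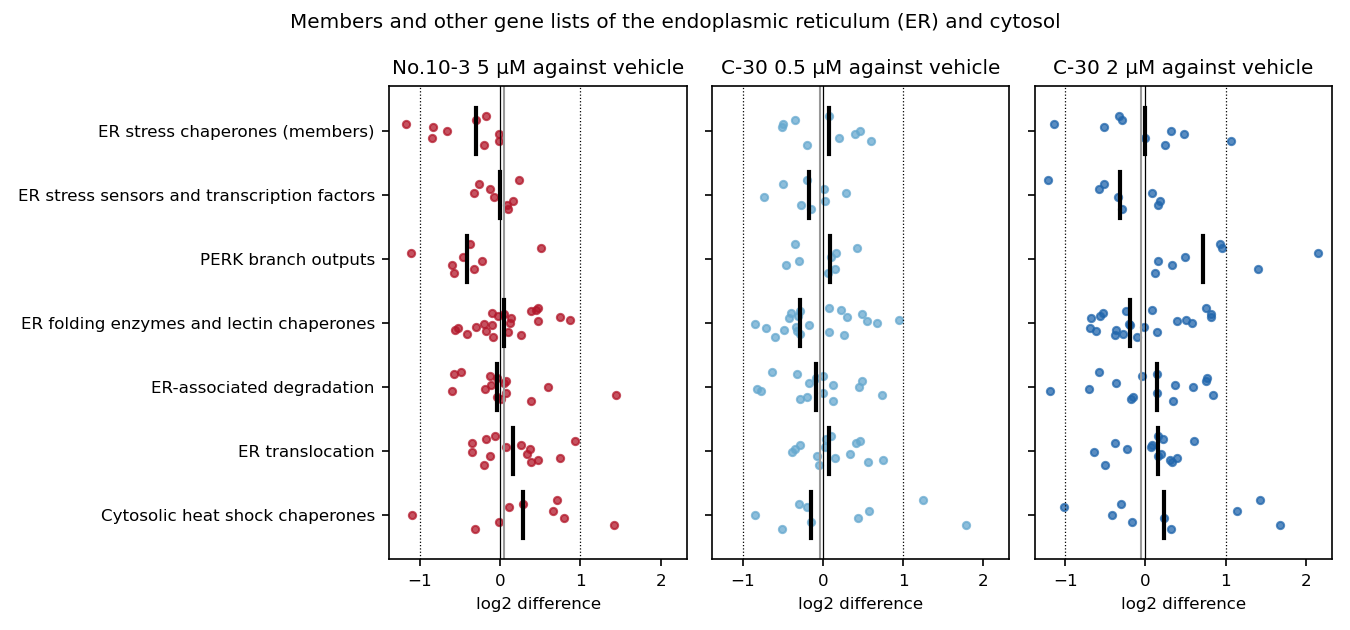
Log2 differences from vehicle (horizontal axis) of the members and of 6 other lists (rows), 1 point per gene past the floor, with the list median as a black bar, the median of all genes as a grey line and 2-fold as dotted lines. The genes listed as PERK outputs have a median of 0.71 with 2 µM C-30 and -0.42 with No.10-3, where the members have medians of -0.01 and -0.30.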

How the data were processed

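A whole-transcript kit was used to label total RNA with biotin, as the labels' protocols state. The deposited log2 signals come from RMA in Affymetrix Expression Console 1.3.0, per the submitters' processing notes. The log base is inferred from the range of the values and from what RMA usually gives. Named signals reached 19.66, so the signals may have been rescaled, and folds hold on that scale only. The build and probe annotation the authors used are not given in the sources here. Symbols of 17709 probe sets with 1 symbol (0 had several, 6642 none) came from the platform annotation and were updated by Entrez identifier, and 20 genes with several probe sets were averaged.

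A gene entered a comparison when the higher of 2 signals reached 5.56, which is the median of all named probe sets, and it was counted from a log2 difference of 1 upward in size. Without replicate arrays no test was made, and precision is limited by their number. The genes named were all members, the 2 genes of each other list with the largest absolute difference from vehicle in each comparison, and the 5 nearest to HSPA5. ATF4 and TRIB3 were named outside this rule, for differences under the ERCC robust SD. Members, lists and rules were chosen with earlier results of these data known. The steps were tested on simulated data. Python 3.11.15, numpy 2.4.6, pandas 2.3.3, statsmodels 0.14.6 and matplotlib 3.10.9 were used.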

Additional observations from a re-analysis of the deposited data

How the results depend on the processing

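No paired analysis was possible because each condition has 1 array. Alternatives were other floors (none, the 75th percentile at 7.90, the highest 95th percentile of negative controls at 7.32), quantile normalization over named genes, arrays centred on genes past the floor, a lowess correction with a fraction of 0.3, the brightest probe set, the other table of values, which differed by at most 5e-05, and a threshold of 1.5-fold. A log2 difference or a median was taken as moved when it changed by more than the robust SD of the ERCC spikes in its comparison. A count of members was taken as moved when it changed by more than 1.5 times. By these rules 21 of 476 values under alternatives moved, counts among them. With No.10-3 the count of members 2-fold lower went to 0 with either higher floor, which keeps 4 members, and the median to -0.75, and 4 members were counted at 1.5-fold. With 0.5 µM C-30 the median was 0.0049 with the floor at the 75th percentile and 0.30 with the floor of negative controls, which DNAJB9 and DNAJC3 passed through the C-30 array, and 1 member was higher at 1.5-fold. With 2 µM C-30 the count higher was 0 with the floor at the 75th percentile, which DNAJB9 at 7.85 did not reach, and the count lower was 0 with either higher floor, which CRELD2 did not reach. The median was 0.12 with the first of these floors and 0.28 with the other, which DNAJB9 and DNAJC3 again passed through the C-30 array. Between the C-30 doses 1 member was lower at 1.5-fold. Of 36 single differences, 2 changed sign, DNAJB11 with 2 µM C-30 and SYVN1 between the doses, both near 0. Centring moved the median of all genes by -0.10 with No.10-3, the median of the members to -0.41, the genes 2-fold lower to 191 from 122, and the share of higher genes among those past 2-fold to 59.9% from 76.7%. For 2 µM C-30 it moved that share to 54.7% from 43.2%.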

Other observations

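The cytosolic heat shock chaperones, which fold proteins outside the endoplasmic reticulum, lay on both sides of vehicle on each treated array. Of 12 genes 9 were measured, with median log2 differences from vehicle of 0.28 with No.10-3, -0.15 with 0.5 µM C-30 and 0.23 at 2 µM. The second was 0.06 after quantile normalization. HSP90AA1, the inducible cytosolic HSP90 gene, had signals of 12.69 with No.10-3, 13.05 and 12.95 with C-30 at 0.5 and 2 µM, and 11.27 with vehicle. It was past 2-fold on all treated arrays, at 1.42 with No.10-3, 1.79 with 0.5 µM C-30 and 1.68 with 2 µM C-30, but these differences share the single vehicle array. Of the 9 genes, 1 passed 2-fold higher with No.10-3, 2 with 0.5 µM C-30 and 3 with 2 µM C-30, where 4.36%, 3.4% and 4.67% of all genes did. In the same order 1, 0 and 1 passed 2-fold lower, where 1.32%, 2.77% and 6.15% of all genes did. CHORDC1, an HSP90 cofactor gene, was higher by 1.25 and 1.42 with C-30 at 0.5 and 2 µM, and by 0.71 with No.10-3. DNAJB1, the inducible cytosolic partner of Hsp70, was lower with No.10-3, at -1.09, with a signal of 11.15 against 12.24 with vehicle. It was also lower with C-30, at -0.84 with 0.5 µM and -0.42 with 2 µM.

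Genes of translocation into the endoplasmic reticulum, 14 of 15 measured, had medians of 0.16 with No.10-3, 0.07 with 0.5 µM C-30 and 0.16 at 2 µM. Of the 14, 0 passed 2-fold, where 1.32% to 6.15% of all genes did on either side in these comparisons. SPCS3, a signal peptidase subunit gene, was higher by 0.93 with No.10-3 and 0.61 with 2 µM C-30. SSR1, a gene of the translocon-associated complex, was higher by 0.75 with No.10-3 and SEC62 by 0.75 with 0.5 µM C-30. SEC61B, a channel subunit gene, was at 0.56 there, from within background with vehicle. SSR4 was at -0.64 with 2 µM C-30.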
